A study of Mus musculus with 6 samples.

Results

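The genes described here are 28 members of the cholesterol synthesis pathway and of the SREBP2 system that controls it, out of 25124 genes in the deposited TPM table. They were taken by gene symbol, and all 28 were found and passed the filter for testing (1 TPM or more in at least 3 samples). They comprise 20 enzymes, from the acetyl-CoA thiolases Acat1 and Acat2 to the last sterol reductase Dhcr7, 4 genes of SREBP2 control (Srebf2, Scap, Insig1, Insig2) and 4 genes of sterol transport and storage (Stard4, Npc1, Npc2, Soat1). The sequenced poly(A) RNA came from RAW264.7, a macrophage line from a virus-induced mouse tumour, in 2 states with 3 samples each. All 6 samples were cells that had received a Cas9 plasmid with no gRNA, made as controls (CTRL) for E4BP4 knockout cells, and they were grown in medium with 25 mM glucose and FBS, a bovine serum. M1 cells had received 100 ng/ml lipopolysaccharide (LPS) and 50 ng/ml interferon-γ, and M0 cells had received neither. Neither the treatment time nor whether replicates were separate cultures is stated, so the spread behind each p-value may be only technical.

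Cells make cholesterol from acetyl-CoA through mevalonate, isoprenoid diphosphates, squalene and lanosterol. The transcription factor SREBP2 (encoded by Srebf2) is held in the endoplasmic reticulum by SCAP and the INSIG proteins while sterols are abundant, and is carried to the Golgi, cleaved and released to the nucleus when sterols run short. There it raises most genes of the pathway, Insig1 among them. In macrophages the pathway is known for its links to interferon and Toll-like receptor signalling and to lipid loading from engulfed material.

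Promoter windows are shown for 5 genes chosen after values were seen. These genes are Hmgcs1 and Mvd, whose RNA was lower in M1, Dhcr7, which had the largest change, and the pair Insig1 and Insig2. The calls of that pair differed only after the rescaling described below. The windows are RefSeq sequences of build GRCm38.p6, read 5′ to 3′ on the gene's strand, and end 1 base before the transcript start (Hmgcs1, Mvd, Insig2) or 51 bases before it (Dhcr7, Insig1). Capitals mark CCAAT boxes (CCAAT), GC boxes (GGGCGG) and an SRE-like motif (TCACNCCAC, after the sterol regulatory element), each on either strand. No marked motif overlapped another.
Hmgcs1, chr13:119690101-119690350, plus strand: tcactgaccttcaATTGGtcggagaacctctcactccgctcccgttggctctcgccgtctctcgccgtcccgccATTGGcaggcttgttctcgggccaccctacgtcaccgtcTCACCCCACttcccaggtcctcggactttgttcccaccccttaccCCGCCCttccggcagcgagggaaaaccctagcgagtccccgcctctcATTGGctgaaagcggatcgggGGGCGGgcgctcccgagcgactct
Mvd, chr8:122443423-122443672, minus strand: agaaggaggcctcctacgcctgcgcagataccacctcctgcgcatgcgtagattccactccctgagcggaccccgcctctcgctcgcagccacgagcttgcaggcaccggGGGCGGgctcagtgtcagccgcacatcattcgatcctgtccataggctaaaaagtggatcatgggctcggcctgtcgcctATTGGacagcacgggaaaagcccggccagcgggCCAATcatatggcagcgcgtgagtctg
Dhcr7, chr7:143822917-143823116, plus strand: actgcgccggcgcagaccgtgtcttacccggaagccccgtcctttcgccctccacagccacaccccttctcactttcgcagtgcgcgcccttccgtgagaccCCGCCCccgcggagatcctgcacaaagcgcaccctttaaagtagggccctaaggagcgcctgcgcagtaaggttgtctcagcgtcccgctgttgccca
Insig1, chr5:28071162-28071361, plus strand: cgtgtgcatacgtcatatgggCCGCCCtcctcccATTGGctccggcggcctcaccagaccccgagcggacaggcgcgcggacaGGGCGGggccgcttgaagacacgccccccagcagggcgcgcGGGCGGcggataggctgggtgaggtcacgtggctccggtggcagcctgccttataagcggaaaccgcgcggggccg
Insig2, chr1:121332590-121332839, minus strand: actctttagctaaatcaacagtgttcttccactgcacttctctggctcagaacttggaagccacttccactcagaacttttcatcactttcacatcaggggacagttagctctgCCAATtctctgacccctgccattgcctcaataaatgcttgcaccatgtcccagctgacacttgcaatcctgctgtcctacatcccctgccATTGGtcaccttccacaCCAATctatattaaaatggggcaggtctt

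The SRE-like motif of Hmgcs1 began 137 bases before the start, and its 3 CCAAT boxes began 237, 176 and 45 bases before it. Mvd held CCAAT boxes at 60 and 27 bases and a GC box at 140 bases, whereas Dhcr7 held a single GC box, at 148 bases. Insig1 held a CCAAT box at 216 bases and 3 GC boxes, and Insig2 held 3 CCAAT boxes and no GC box. These windows belong to the deposited transcripts. The table holds 2 other starts for Insig2, each with 1 GC box and no CCAAT box, and 2 for Dhcr7, of which 1 has 2 CCAAT boxes and 3 GC boxes and the other has neither motif. Of the 28 members, 22 had a promoter in the RefSeq table (all but Acat1, Fdps, Fdft1, Sqle, Stard4 and Npc1), and in 21 of them a promoter began at the deposited transcript's start. Within the 250 bases before that start, 18 of the 21 members held a CCAAT box (85.7%), against 35.9% of 17595 genes matched in the same way and 37.1% of the 8434 tested ones. A GC box was present in 17 of the 21 (81%), against 42.8% and 60.8%. The SRE-like letters were in 1 of the 21, against 1.03% of all matched genes. These are matches of letters, given as a description.

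Reads in genes numbered 15615639 to 20283180 per library, and the member with the fewest reads in any library, Mvk, had 275. For a transcript of 2000 bases, 1 TPM (reads scaled by transcript length and by library) stood for at least 26.5 reads. All 8 macrophage markers examined were at 1 TPM or more in every sample. They summed to 2790 to 3028 TPM in M0 and 2463 to 2493 TPM in M1, but went both ways. Means were higher in M1 than in M0 for Adgre1 (67.6 against 2.73 TPM), Fcgr1 (139 against 40.2), Ptprc (170.9 against 146.5) and Cd14 (649.5 against 637.5). They were lower for Lyz2 (683 against 1069 TPM), Csf1r, Cd68 and Itgam. All 14 markers of T, B, fibroblast and epithelial cells were below 1 TPM in every sample. Cd3g, Cd8a, Krt8 and Krt18 were among those at 0 throughout. As a check of the M1 label, Nos2 (inducible nitric oxide synthase) stood at 0.161 ± 0.0417 and 563 ± 51.7 TPM in M0 and M1, and the chemokine gene Cxcl10 at 2.86 ± 0.351 and 3113 ± 12.9 TPM (mean ± SD, n = 3, as throughout). On the TPM scale the median log2 fold change of the 11297 tested genes was -0.31. Dividing each library by its median-of-ratios factor, which centres the typical gene, brought it to 0.02. Changes of members are therefore given on both scales, and a gene is said to have fallen or risen on both only where limma called it (adjusted p under 0.05) in the same direction on each. Of the macrophage markers above, Cd14 was not called on the TPM scale (log2 change 0.03). Csf1r and Cd68 were not called after rescaling (-0.13 and 0.11). In bulk RNA, fewer cells expressing a gene and less RNA per cell cannot be told apart.

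Most of the pathway was lower in M1, and how many genes were called depended on the scale. On the TPM scale 25 of the 28 members fell, 1 rose (Npc2) and 2 (Idi1 and Ggps1) were not called, where 61.5% of all tested genes fell and 18.7% rose (limma on log2(TPM + 1), Benjamini-Hochberg over all tested genes). After rescaling, 15 were lower and 6 were higher, where 35.4% of all tested genes were lower and 38.1% higher. All 15 had also fallen on the TPM scale: Acat1, Acat2, Hmgcs1, Mvk, Pmvk, Mvd, Sqle, Lss, Tm7sf2, Msmo1, Nsdhl, Dhcr7, Insig1, Stard4 and Npc1. Falling on both scales requires a lower call after rescaling, so at most 35.4% of all tested genes fell on both. That limit stands beside the counts by pathway stretch below, each of which covers few genes. The members' median log2 fold change was -0.54 without rescaling and -0.19 with it. Of the 28, 5 (Acat2, Mvd, Sqle, Dhcr7 and Stard4) fell at least 2-fold on the TPM scale, where 11.3% of all tested genes did, and 1 of them, Dhcr7, did so after rescaling, where 5.77% did (fold changes from the fit on log2(TPM + 1)). The ratio of mean rescaled TPM was 2.44-fold lower in M1 for Dhcr7 and 2.09-fold lower for Stard4. With limma-voom on the recovered reads, which has the same centring, the counts of members were 15 lower and 6 higher as well, where 35.6% and 38.6% of all tested genes were.

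In 24 members (85.7%) every M1 sample lay below every M0 sample on the TPM scale, and in Npc2 every M1 sample lay above, where 61.8% and 19.6% of all tested genes were so separated. After rescaling 16 members (57.1%) were separated downwards and 6 upwards (Idi1, Ggps1, Cyp51, Ebp, Insig2 and Npc2), where 36.5% and 39.2% of all tested genes were.

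**Figure D1:**
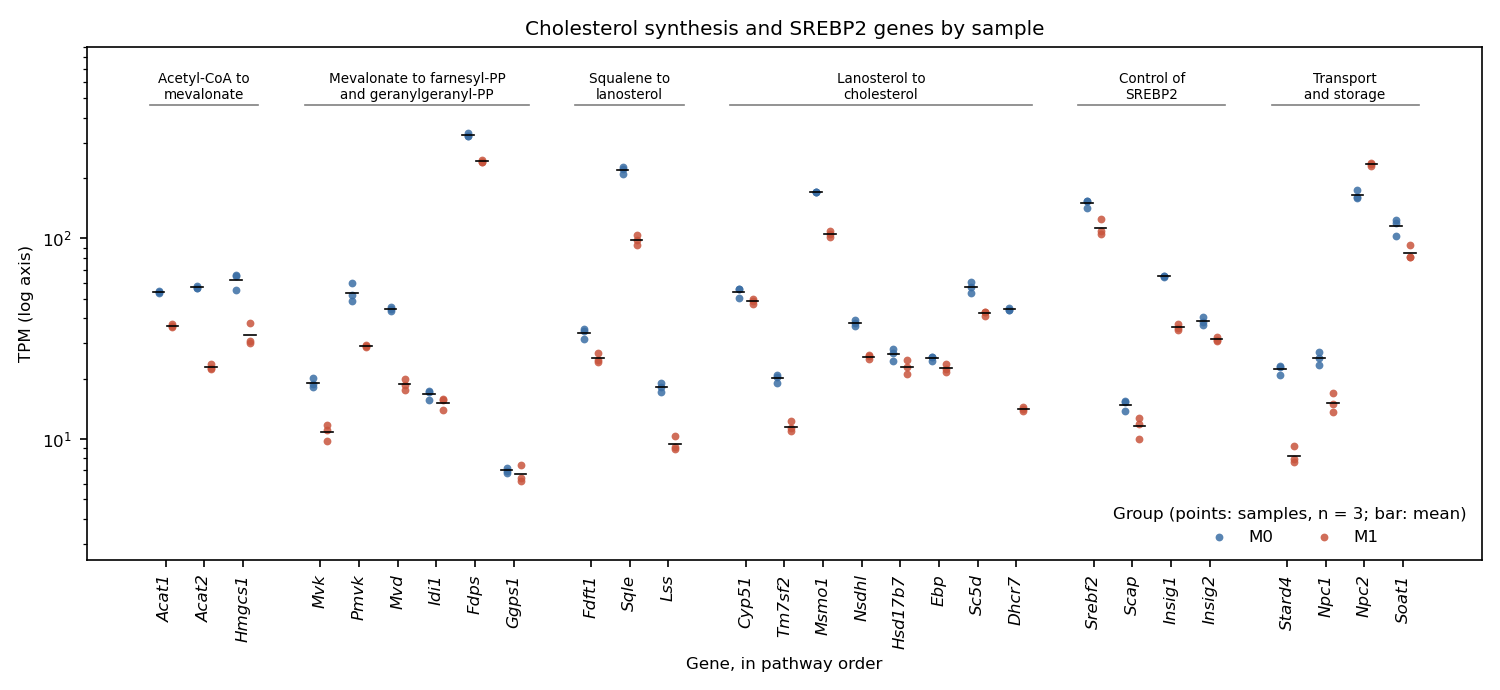
TPM (log axis) of the 28 genes in each of 3 M0 and 3 M1 samples, in pathway order; points are samples and bars are means. The M1 points lie below the M0 points for 24 genes, above them for Npc2, and overlap for Idi1, Ggps1 and Hsd17b7.

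Summed over the 20 enzymes, the level was 1322, 1352 and 1371 TPM in the M0 samples and 825, 834 and 866 TPM in the M1 samples. Every M1 sum lay below every M0 sum, at 0.624 of the M0 mean on the TPM scale and 0.803 after rescaling. The sums stood at different fractions of M0 along the pathway. The squalene-to-lanosterol enzymes stood at 0.491 of their M0 sum (0.633 after rescaling) and the first 3 enzymes at 0.534 (0.688). Enzymes from mevalonate to the isoprenoid diphosphates stood at 0.688 (0.886) and those from lanosterol to cholesterol at 0.674 (0.867). Each sum is led by its most abundant genes and carries no test. The 4 transport and storage genes, led by Npc2, summed to 327 ± 6.13 TPM in M0 and 343 ± 4.70 TPM in M1, at 1.05 of M0 on the TPM scale and 1.35 after rescaling.

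At the entry to the pathway all 3 genes fell on both scales. Acat2 (NM_009338, chromosome 17, 12943042 to 12960725, mm10), the cytosolic thiolase that joins 2 acetyl-CoA molecules, had 56.8, 56.6 and 57.8 TPM in M0 and 22.7, 22.4 and 23.6 TPM in M1. The groups were far apart and tight. Its log2 change was -1.28 (SE 0.05, limma adjusted p = 4.7e-10), and -0.93 after rescaling. Acat3, the neighbouring copy, shares 39.1% of the 50-base windows in Acat2 transcripts, so the split of reads between them is uncertain. Acat3 itself was at 51.3 ± 3.82 TPM in M0 samples and 50.7 ± 1.39 TPM in M1 samples. Its log2 change was -0.01 on the TPM scale, not called. After rescaling Acat3 was higher in M1, by 0.34 (limma adjusted p = 0.00029). Hmgcs1 (NM_001291439, chromosome 13, 119690351 to 119708260), the HMG-CoA synthase, had 55.1, 65.1 and 66.0 TPM in M0 and 30.2, 31.0 and 37.8 TPM in M1. It was more variable than Acat2 within both groups, yet the groups did not overlap, and its log2 change was -0.89 (SE 0.10, limma adjusted p = 1.9e-05), and -0.54 after rescaling. Acat1, the mitochondrial thiolase, which also serves ketone body and isoleucine breakdown, changed least of the 3, from 54.2 ± 0.706 TPM (53.4 to 54.7) to 36.6 ± 0.618 TPM (36.0 to 37.3), a log2 change of -0.55, and -0.19 after rescaling (limma adjusted p = 0.0021).

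In the steps from mevalonate to farnesyl and geranylgeranyl diphosphate, the 3 genes that act on mevalonate and its phosphates fell on both scales, and the 3 that follow did not. Mvd (NM_138656, chromosome 8, 122433596 to 122443422), the mevalonate diphosphate decarboxylase, had 43.4, 44.3 and 45.5 TPM in M0 and 18.6, 17.6 and 19.97 TPM in M1. All M1 samples were under the level of any M0 sample, and the log2 change was -1.21 (SE 0.06, limma adjusted p = 4.2e-09), and -0.85 after rescaling. The 2 kinases before it had smaller changes. Pmvk went from 53.6 ± 5.87 TPM (48.7 to 60.1) to 29.1 ± 0.397 TPM (28.7 to 29.4), and Mvk from 19.1 ± 1.02 TPM (18.2 to 20.2) to 10.8 ± 1.03 TPM (9.74 to 11.8). Their log2 changes were -0.85 and -0.76, and after rescaling -0.50 and -0.42.

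Idi1, which isomerises isopentenyl diphosphate, had 15.6, 17.3 and 17.2 TPM in M0 and 13.9, 15.7 and 15.6 TPM in M1. The groups overlapped, and the difference was not called on the TPM scale (log2 change -0.14, 95% interval -0.29 to 0.01, limma adjusted p = 0.083), although it was called without M0 replicate 1 (-0.18, limma adjusted p = 0.034). After rescaling Idi1 was higher in M1, by 0.21 (limma adjusted p = 0.011). Transcripts of Idi1 share 17.7% of their 50-base windows with Gm13502, so part of its reads may be placed uncertainly. Ggps1, which makes geranylgeranyl diphosphate for protein prenylation, was the least abundant member, with 6.92, 7.21 and 6.80 TPM in M0 and 7.43, 6.37 and 6.20 TPM in M1. Its M1 samples spanned the M0 range. On the TPM scale it was not called (log2 change -0.06, 95% interval -0.23 to 0.11), and after rescaling it was higher in M1, by 0.26 (limma adjusted p = 0.011). Fdps, which makes farnesyl diphosphate, the branch point to sterols and prenyl groups, was the most abundant member, with 325, 325 and 334 TPM in M0 and 239, 241 and 245 TPM in M1. It fell on the TPM scale by 0.44 (log2), and after rescaling the difference of -0.07 was not called (95% interval -0.17 to 0.02). Of its windows, 26.2% are shared, mostly with the overlapping gene model Gm43738.

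Of the 3 genes from squalene to lanosterol, 2 fell on both scales. Sqle (NM_009270, chromosome 15, 59315092 to 59331193), the squalene epoxidase and a rate-limiting enzyme of the sterol branch, had 210, 226 and 221 TPM in M0 and 92.4, 98.5 and 104 TPM in M1. Its log2 change was -1.15 (SE 0.05, limma adjusted p = 3.1e-09), and -0.79 after rescaling. Lss, the lanosterol synthase that closes the rings, went from 18.1 ± 0.972 TPM (17.2 to 19.1) to 9.47 ± 0.745 TPM (8.92 to 10.3), a log2 change of -0.87, and -0.53 after rescaling. The squalene synthase Fdft1 had 31.6, 35.2 and 34.4 TPM in M0 and 24.3, 24.9 and 26.9 TPM in M1. It fell on the TPM scale (log2 change -0.40, limma adjusted p = 7.7e-05), and after rescaling the difference of -0.05 was not called (95% interval -0.16 to 0.07). Exons of the much more abundant cathepsin gene Ctsb, on the opposite strand, cover 18.3% of Fdft1's exonic bases in the GENCODE M21 annotation. No source used here says whether reads were counted by strand, so reads of the pair may not be told apart and the level of Fdft1 is uncertain. Ctsb was at 854 ± 16.3 TPM in M0 samples and 785 ± 14.8 TPM in M1 samples. It was called lower on the TPM scale (log2 change -0.12) and higher after rescaling (0.24). Overlapping exons of other genes also cover 26.7% of Fdps (Gm43738), 13.2% of Scap (5830462I19Rik), 12.1% of Hmgcs1 (Gm48342) and 12.1% of Tm7sf2 (Vps51).

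The 8 enzymes from lanosterol to cholesterol split into 4 that fell on both scales and 4 that did not. At most 35.4% of all tested genes fell on both. Dhcr7 (NM_007856, chromosome 7, 143823167 to 143848410), which reduces 7-dehydrocholesterol to cholesterol, showed the largest change of any member, with 44.2, 45.1 and 43.9 TPM in M0 and 13.7, 14.2 and 14.5 TPM in M1. Replicates differed little beside the gap between groups. The ratio of means was 3.14-fold lower in M1, and the log2 change was -1.59 (SE 0.05, limma adjusted p = 1.3e-10), and -1.24 after rescaling. Its log2 fold change in the authors' deposited table was -1.29. Tm7sf2, a sterol reductase, went from 20.1 ± 0.923 TPM (19.03 to 20.7) to 11.5 ± 0.706 TPM (10.9 to 12.3), a log2 change of -0.75, and -0.41 after rescaling. Msmo1, which removes methyl groups at carbon 4, went from 170.5 ± 0.672 TPM (170.0 to 171) to 106 ± 3.65 TPM (102 to 109), a log2 change of -0.69, and -0.32 after rescaling. Its partner in that step, Nsdhl, went from 37.9 ± 1.28 TPM (36.5 to 39.1) to 25.7 ± 0.633 TPM (25.1 to 26.3), a log2 change of -0.54, and -0.18 after rescaling.

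The other genes of this stretch depended on the scale. Cyp51, the lanosterol demethylase, had 50.2, 55.8 and 56.2 TPM in M0 and 49.0, 47.0 and 49.7 TPM in M1. It was called lower on the TPM scale (log2 change -0.15, limma adjusted p = 0.025) and higher after rescaling (0.21, limma adjusted p = 0.0029). Ebp, a sterol isomerase, had 25.7, 24.4 and 25.5 TPM in M0 and 22.4, 23.8 and 21.6 TPM in M1, with log2 changes of -0.15 and 0.20 on the 2 scales, both called. Hsd17b7, the ketosteroid reductase of carbon 4 demethylation, had 24.4, 27.98 and 26.98 TPM in M0 and 21.2, 22.9 and 24.7 TPM in M1, with overlapping groups and log2 changes of -0.20 and 0.15, again both called. Each of the 3 calls on the TPM scale was lost when single libraries were left out: Cyp51 without M0 replicate 2, M0 replicate 3 or M1 replicate 2 (log2 changes -0.13, -0.12 and -0.13), Ebp without M0 replicate 1 or 3 or M1 replicate 1 or 3 (-0.14, -0.14, -0.15 and -0.12), and Hsd17b7 without M0 replicate 2 or 3 or M1 replicate 1 (-0.16, -0.18 and -0.15). The rescaled call of Hsd17b7 was lost without M0 replicate 1 or 3 or M1 replicate 2 or 3, at 0.11, 0.16, 0.15 and 0.11. The rescaled calls of Cyp51 and Ebp, both higher in M1, held in all 6 omissions, at 0.17 to 0.23 and 0.16 to 0.24. In the authors' deposited table the log2 fold changes were 0.21 for Cyp51, 0.21 for Ebp and 0.16 for Hsd17b7. Sc5d, the sterol desaturase before Dhcr7, had 60.6, 53.2 and 57.4 TPM in M0 and 42.8, 43.0 and 41.2 TPM in M1. It fell on the TPM scale (-0.42) and was not called after rescaling (-0.06, 95% interval -0.20 to 0.07).

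**Figure D2:**
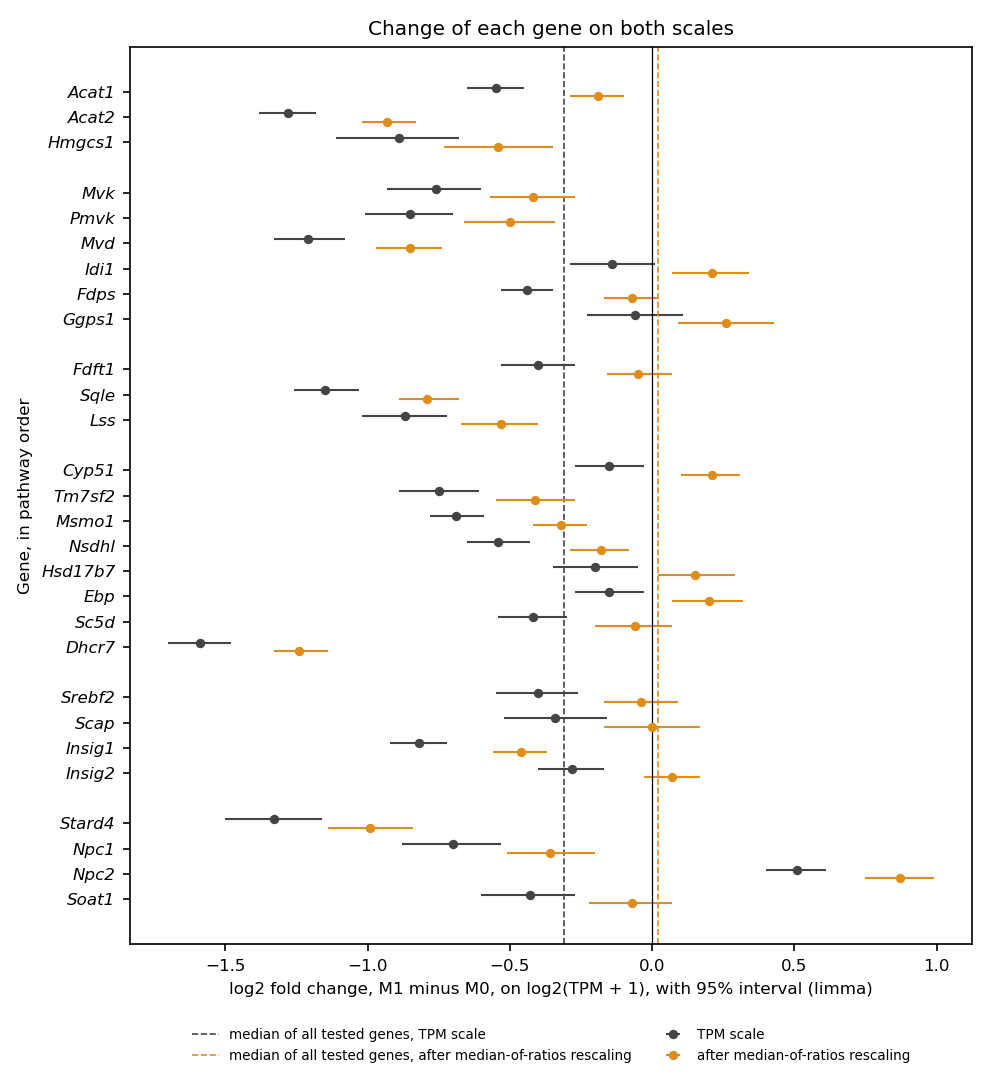
Fitted log2 fold change of each gene (M1 minus M0, on log2(TPM + 1)) with its 95% interval, on the TPM scale and after median-of-ratios rescaling; dashed lines mark the medians of all tested genes, -0.31 and 0.02. Rescaling moved every gene to the right; Dhcr7, at -1.59 and -1.24, lies farthest left on both scales and Npc2, at 0.51 and 0.87, farthest right.

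Among the genes that control SREBP2, Insig1 fell on both scales and the other 3 were called only on the TPM scale. Insig1 (NM_153526, chromosome 5, 28071412 to 28078662), an anchor of the SCAP complex and itself an SREBP2 target, had 64.3, 64.8 and 64.8 TPM in M0 and 36.0, 34.9 and 37.6 TPM in M1. Its log2 change was -0.82 (SE 0.05, limma adjusted p = 2.0e-08), and -0.46 after rescaling. Insig2, the second anchor, whose promoter is printed beside that of Insig1, had 36.9, 40.7 and 38.2 TPM in M0 and 31.2, 31.0 and 32.3 TPM in M1. It fell by 0.28 on the TPM scale, and after rescaling its log2 difference of 0.07 was not called (95% interval -0.03 to 0.17). The intervals of Insig1 (-0.92 to -0.72) and Insig2 (-0.40 to -0.17) on the TPM scale did not overlap, while the difference between the 2 genes was not itself tested.

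Srebf2 (NM_033218, chromosome 15, 82147269 to 82204960) had 141, 153 and 154 TPM in M0 and 105, 109 and 125 TPM in M1. No M1 sample reached the lowest M0 sample, and the log2 change was -0.40 (SE 0.07, limma adjusted p = 0.00017). After rescaling it was -0.04 (95% interval -0.17 to 0.09) and was not called. Scap, the escort and sterol sensor of SREBP2, had 13.9, 15.4 and 15.2 TPM in M0 and 10.0, 11.9 and 12.7 TPM in M1. It fell by 0.34 on the TPM scale, and after rescaling the groups overlapped, with a 95% interval of -0.17 to 0.17. RNA levels do not show how much SREBP2 was cleaved.

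The 4 genes of sterol transport and storage went different ways. Stard4 (NM_133774, chromosome 18, 33199138 to 33213862), a soluble carrier of cholesterol between membranes, had 20.8, 23.2 and 22.9 TPM in M0 and 7.92, 7.64 and 9.27 TPM in M1. The highest M1 sample was well under the lowest M0 sample, and the log2 change was -1.33 (SE 0.08, limma adjusted p = 2.3e-08), and -0.99 after rescaling, the second largest fall among the members on each scale. Npc1 and Npc2 act in sequence to move cholesterol out of the lysosome, and they changed in opposite directions. Npc1, the membrane protein, went from 25.3 ± 1.78 TPM (23.5 to 27.01) to 15.2 ± 1.65 TPM (13.7 to 16.96), or by -0.70 on the log2 scale (limma adjusted p = 7.4e-06), and by -0.36 after rescaling. Npc2 (NM_023409, chromosome 12, 84754559 to 84773112), the soluble carrier in the lysosome, had 174, 160 and 160 TPM in M0 and 236, 238 and 229 TPM in M1. It was the only member higher in M1 on both scales, by 0.51 (SE 0.05, limma adjusted p = 1.4e-06) and by 0.87 after rescaling. Soat1, which esterifies cholesterol for storage, had 103, 123 and 119 TPM in M0 and 80.9, 81.1 and 92.7 TPM in M1, a fall of 0.43 on the TPM scale that was not called after rescaling (-0.07, 95% interval -0.22 to 0.07).

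**Figure D3:**
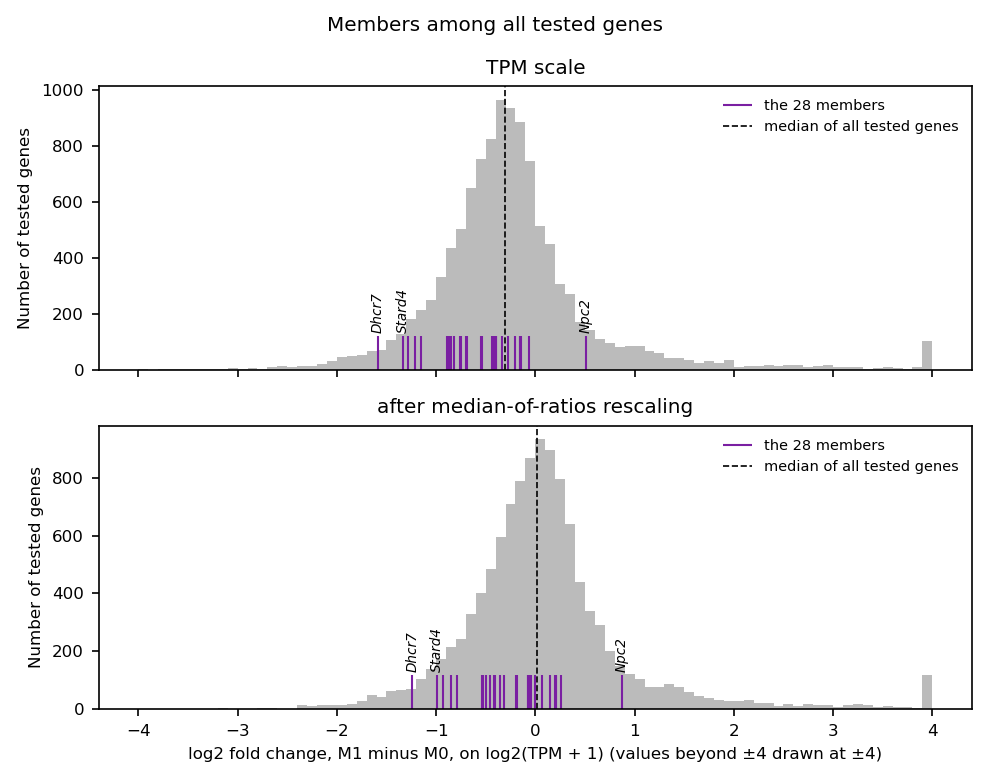
Distribution of the fitted log2 fold changes of all 11297 tested genes on each scale (values beyond the axis are drawn at its ends), with the 28 members as ticks. The members' median was -0.54 against -0.31 for all genes on the TPM scale, and -0.19 against 0.02 after rescaling; Dhcr7, Stard4 and Npc2 are named.

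Within the groups the same libraries were often at the edge. M1 replicate 3 had the highest level of the 3 M1 samples for 21 of the 28 members (75%), against 53.3% of all tested genes, and M0 replicate 1 had the lowest level of the 3 M0 samples for 17 members (60.7%), against 49.7%. Both held for 15 members (53.6%), among them Hmgcs1, Sqle, Srebf2, Insig1, Stard4 and Soat1, against 34.2% of all tested genes. Without M1 replicate 3, 24 members fell on the TPM scale, and without M0 replicate 1, 25 did. After rescaling, 15 were lower without either library.

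Genes around the pathway were taken as 5 lists with 50 members in all. Of the 44 tested, 30 fell and 8 rose on the TPM scale, and 17 were lower and 13 higher after rescaling, beside the same shares of all tested genes as above. Their median log2 change was -0.39 and -0.04 on the 2 scales. Among 13 genes of SREBP processing and sterol-regulated degradation, 10 fell and 2 rose, against 4 and 3 after rescaling. Srebf1, which encodes SREBP1, the factor that favours fatty acid synthesis, fell from 71.9 ± 3.35 to 24.9 ± 2.90 TPM (log2 change -1.49, and -1.14 after rescaling), beside a log2 change of -0.40 for Srebf2. The proteases that cleave SREBPs in the Golgi were both called lower on the TPM scale and differed in their calls after rescaling. Mbtps1 went from 31.0 ± 1.96 to 23.9 ± 1.68 TPM (-0.36), and its change of -0.01 after rescaling was not called. Mbtps2 went from 22.5 ± 0.786 to 14.9 ± 0.540 TPM and was lower on both scales (-0.56 and -0.22). Erlin1, a protein of sterol-regulated degradation in the endoplasmic reticulum, went from 34.5 ± 0.595 to 21.9 ± 0.635 TPM (log2 change -0.64, and -0.28 after rescaling). The ubiquitin ligases of the endoplasmic reticulum Rnf139 and Syvn1 rose on both scales, Rnf139 from 16.9 ± 1.09 to 27.7 ± 1.04 TPM (0.68, and 1.03 after rescaling) and Syvn1 from 20.5 ± 1.18 to 26.0 ± 2.27 TPM (0.33 and 0.68).

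Of 14 tested genes of sterol transport within the cell and ester hydrolysis, 9 fell and 2 rose, where 61.5% and 18.7% of all tested genes did. After rescaling 7 were lower and 5 higher, where 35.4% and 38.1% of all tested genes were. Osbpl2, an oxysterol-binding protein relative, fell from 25.1 ± 1.23 to 9.11 ± 0.626 TPM (log2 change -1.37, and -1.03 after rescaling), and Lipa, the lysosomal acid lipase that frees cholesterol from its esters, from 258 ± 10.4 to 153 ± 8.67 TPM (-0.76 and -0.39). Stard3, a tether that carries cholesterol at late endosomes, rose from 29.96 ± 0.770 to 48.04 ± 0.699 TPM (0.66 and 1.02), and Stard5 from 10.2 ± 0.206 to 12.6 ± 0.468 TPM (0.29 and 0.62). Of 12 genes on the branches from farnesyl and geranylgeranyl diphosphate, 6 fell and 4 rose, against 3 and 5 after rescaling. The shares of all tested genes beside these counts are those just given. Pdss1, which builds the ubiquinone side chain, rose from 19.2 ± 0.632 to 28.9 ± 2.58 TPM (0.56 and 0.91), and Srd5a3, of dolichol synthesis, from 14.3 ± 0.295 to 18.01 ± 0.558 TPM (0.31 and 0.65). Dhdds, also of dolichol synthesis, fell from 23.9 ± 1.05 to 15.2 ± 0.657 TPM (-0.62 and -0.27), and Fnta, a prenyl transferase subunit, from 47.5 ± 1.92 to 30.01 ± 1.27 TPM (-0.65 and -0.29).

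**Figure D4:**
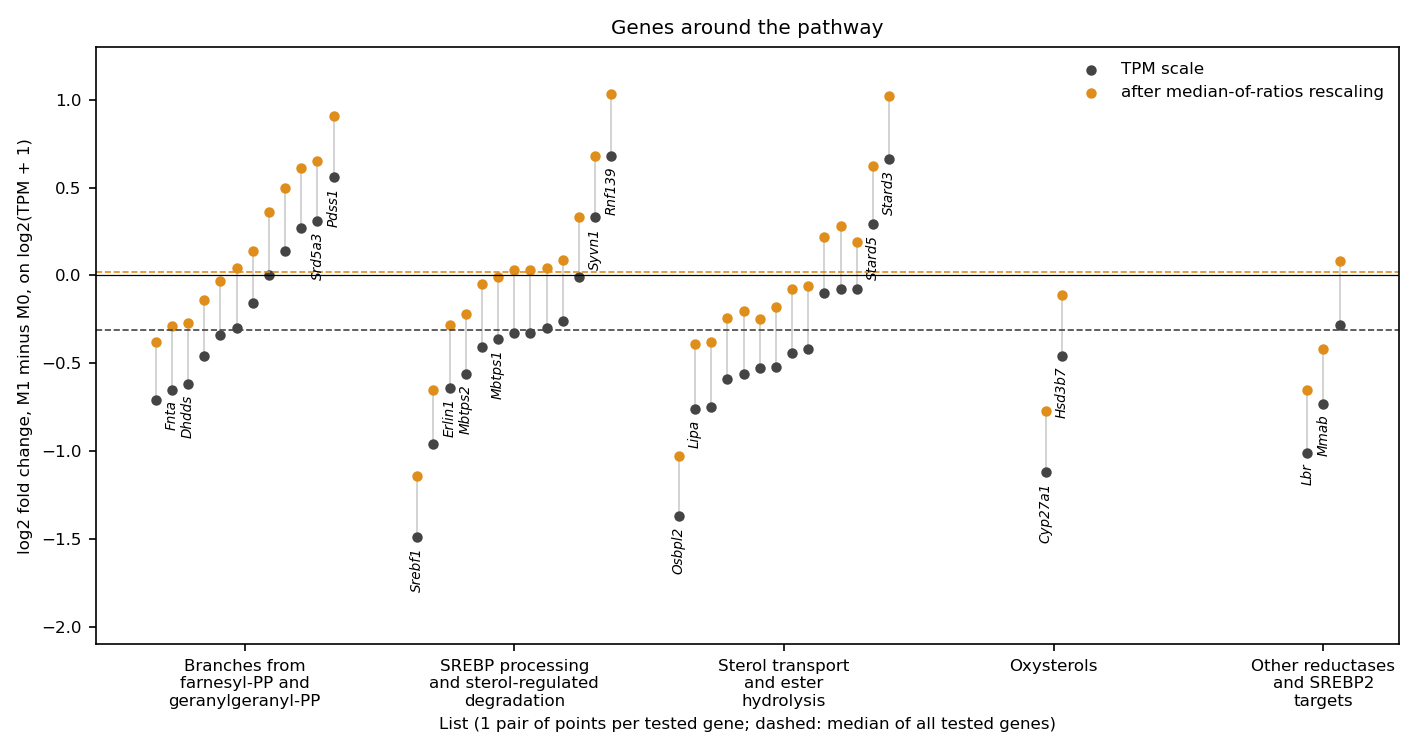
Fitted log2 fold changes (M1 minus M0, on log2(TPM + 1)) of the 44 tested genes around the pathway by list, on the TPM scale and after rescaling; dashed lines mark the medians of all tested genes. Srebf1 and Osbpl2 lie lowest, at -1.49 and -1.37 on the TPM scale, and Rnf139 and Stard3 highest, at 0.68 and 0.66.

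All 3 tested genes of the list of other reductases and SREBP2 targets fell on the TPM scale, where 61.5% of all tested genes fell. Lbr, an inner nuclear membrane protein with sterol reductase activity, fell from 190.1 ± 5.08 to 93.7 ± 2.001 TPM (log2 change -1.01, and -0.65 after rescaling), and Mmab, a cobalamin enzyme whose gene lies next to Mvk, from 6.79 ± 0.168 to 3.72 ± 0.419 TPM (-0.73, and -0.42 after rescaling). Oxysterol genes were mostly too low to test. Cyp27a1, which makes 27-hydroxycholesterol, fell from 28.3 ± 0.291 to 12.5 ± 0.302 TPM (-1.12, and -0.77 after rescaling), and Hsd3b7 from 31.3 ± 2.10 to 22.5 ± 1.33 TPM (-0.46), a change not called after rescaling (-0.11). Ch25h, which makes 25-hydroxycholesterol, a suppressor of SREBP2 cleavage, was at 0.047, 0 and 0 TPM in M0 and 0.394, 0.085 and 0.192 TPM in M1. Those values rest on 1 read in M0 and 15 in M1 over each group's 3 libraries, and Ch25h was below the filter for testing. In the authors' deposited table the log2 fold change of Ch25h was 4.01, at an adjusted p under 0.05.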

How the data were processed

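Poly(A) RNA of 3 M0 and 3 M1 samples was sequenced, per the labels' protocols. Tools named in the submitters' processing notes, without their roles, are STAR 2.7.5a, HOMER 4.11.1, bcl2fastq and DESeq2, and the build is mm10. Per the file headers, the authors' values are TPM for each gene, which sum to between 551257 and 572349 per library. A second table holds, per the file headers, the authors' log2 fold change with its p-value and adjusted p-value for M1 against M0, and 6 columns of log2 values whose transform is not stated and which were not used here.

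Tests were run with limma 3.58.1 (R 4.3.3, trend and robust empirical Bayes) on log2(TPM + 1), with group as the only term, 4 residual degrees of freedom and Benjamini-Hochberg adjustment over 11297 genes. An exact permutation test of 3 against 3 could reach no p below 0.1, so none is given. Fold changes on this scale understate those of low genes. Reads recovered from TPM and transcript length were whole to within 0.1 in 99.8% to 99.99% of nonzero values, and limma-voom on them called 4359 genes higher and 4026 lower. Read numbers and depth cover counting error only. Alternatives were another pseudocount (0.1), other filters, median-of-ratios rescaling, limma-voom on the recovered reads, limma without trend and robust, single libraries left out, and a replicate block. The procedure was tested on simulated data in which most genes did not change, so that test does not bear on the choice of scale. No pair of replicates was the same within counting noise (chi-square divided by its degrees of freedom, 1.54 to 7.55).

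Members, lists and motifs were chosen with earlier results of these data known. All members are given; values in each sample are printed for those at least 2-fold changed, not called or dependent on the scale, and for Hmgcs1 and Insig1. From each related list, up to 2 rising and 2 falling called genes with the smallest p are named, with Srebf1, Mbtps1, Mbtps2, Ch25h and Lbr. Acat3, Ctsb, the sample values of Npc2, and the printed promoters were chosen after values were seen.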

Additional observations from a re-analysis of the deposited data

How the results depend on the processing

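The scale was the choice that mattered most. Median-of-ratios rescaling and limma-voom on recovered reads gave 6 members higher and 15 lower with either, in place of 1 and 25, a median log2 change of -0.19 and -0.20, 4305 and 4359 of all tested genes higher, and 4002 and 4026 lower, in place of 2111 and 6944. Related genes numbered 13 higher and 17 lower after rescaling, and 12 and 17 with limma-voom. The sign turned, after rescaling and with limma-voom, for Idi1 (0.21 and 0.22), Ggps1 (0.26 and 0.30), Cyp51 (0.21 and 0.21), Hsd17b7 (0.15 and 0.16), Ebp (0.20 and 0.21) and Insig2 (0.07 and 0.07, not called). Calls were lost under both for Fdps, Fdft1, Sc5d, Srebf2, Scap and Soat1. In the authors' deposited table their log2 fold changes were -0.08, -0.05, -0.06, -0.04, 0.00 and -0.08, and that of Insig2 was 0.06. None of these had an adjusted p under 0.05 there. With a pseudocount of 0.1, a filter at 5 TPM, or limma without trend and robust, all 28 members kept direction and call, and without a filter Hsd17b7 lost its call.

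Leaving out single libraries gave 22 to 25 members lower and 1 higher, and a median of -0.55 to -0.54. Of the 11297 tested genes, 6606 to 6997 were lower in these fits and 1990 to 2076 higher. After rescaling, a scale and omission combined after seeing the data, leaving out single libraries gave 15 members lower in each case and 5 to 6 higher. All tested genes there numbered 3728 to 3993 lower and 4025 to 4317 higher. Scap, at -0.00 after rescaling, then stood at 0.02 without M0 replicate 2, 0.01 without M0 replicate 3 and 0.08 without M1 replicate 1, and Srebf2 at 0.00 without M1 replicate 1, none called. Same-numbered samples of the 2 groups did not deviate together (correlations 0.07, -0.08 and 0.04), so the numbers were not taken as pairs. The replicate block left 25 members lower and 1 higher.

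With 3 samples a group, the TPM-scale calls of Cyp51, Ebp and Hsd17b7 and the rescaled call of Hsd17b7 were lost without single libraries, and the rescaled calls of Cyp51 and Ebp were not.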
